A study of Mus musculus with 10 samples.

Results

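The homeobox genes encode transcription factors that bind DNA through the homeodomain, and the PAX genes encode factors with a paired domain, many of which also carry a homeodomain. The 101 genes described here are the homeobox genes outside the Hox clusters, with the PAX genes, whose symbols belong to the NK, LIM, IRX, SIX-family, PAX, paired-like, antennapedia-like, POU, or CUT and prospero families. They were chosen by symbol alone, with no measured value, from the 55401 genes of the count table, and all 101 are annotated as protein coding. Homeobox genes with other kinds of symbol, such as Dlx, Msx, En, Meis and Pbx, fall outside that choice and are described as a separate list.

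RNA was sequenced from the ectoderm of mouse (Mus musculus) forelimb buds at the embryonic stage E9.75, freed from the underlying tissue after 20 min in 0.25% trypsin, with the ectoderm of about 2 buds in each replicate. The 3 double knockout (DKO) libraries came from embryos labelled SP8&SP6_DOUBLE_KO, and the 3 wild-type (WT) libraries from littermates. The labels give neither the strain nor the alleles, and do not say which samples shared an embryo or a litter, so each p-value reflects only how these samples spread. The 4 samples of E10.5 were not analysed here. The libraries are called WT 32, WT 53, WT 56, DKO 17, DKO 40 and DKO 41 after the column names of the table.

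Limb ectoderm is a thin epithelium over a mesenchymal core, and the apical ectodermal ridge, a thickening along its distal rim, secretes fibroblast growth factors that keep the bud growing. Sp8 and Sp6 are related zinc finger factors of the SP family that are expressed in this epithelium and are needed to form the ridge. Homeobox factors mark positions and cell types along the embryo: SIX-family proteins act with EYA and DACH proteins, LIM factors act through LDB adaptors and are limited by LMO proteins, and several PAX, IRX and NK proteins recruit TLE corepressors.

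The library totals ranged from 64432348 to 87040786 counts. Levels are counts-per-million values (CPM) with TMM scaling between libraries, and changes were tested with edgeR's quasi-likelihood test, Benjamini-Hochberg adjusted over 19126 genes, with a call at an adjusted p under 0.05. Sp8 was 9.84-fold lower in DKO (36.2 ± 6.22 against 3.68 ± 1.90 CPM, SD, n = 3 each; edgeR adjusted p = 0.000806). Sp6 was at 286.8 ± 50.7 CPM in WT and at 133.2, 13.9 and 76.9 CPM in DKO 17, DKO 40 and DKO 41, which was not called (edgeR adjusted p = 0.207) except without DKO 40 (log2 fold change -1.45, edgeR adjusted p = 0.0487), and its exons share 3329 bases with Gm11532. The 13 ectoderm markers were all detected, with summed levels of 4007 to 4366 CPM in WT and 2573 to 3486 CPM in DKO. They did not move together. Epcam, Cdh1 and Perp were called as lower in DKO, and Krt8 as higher (345 ± 18.6 CPM in WT and 478 ± 26.4 CPM in DKO). Of those not called, Krt5 had a mean 10.9-fold lower in DKO and Tfap2a 1.03-fold lower. The 7 ridge markers summed to 1790 to 2201 CPM in WT and 55.9 to 140 CPM in DKO. Each library holds the RNA of whole peeled tissue, so fewer cells of a type and less RNA per cell cannot be told apart.

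Of the 101 members, 17 had 0 counts in all 6 libraries. A count of 0 allows a mean of up to 0.0127 CPM in the WT group and 0.012 CPM in the DKO group (3 counts over the group, counting error only). These 17 were Nkx2-1, Nkx2-2, Nkx2-3, Nkx2-5, Nkx2-6, Nkx6-3, Lhx5, Six3, Six6, Pax2, Pax4, Pax5, Evx2, Gsx1, Gsx2, Barhl2 and Pou1f1, among them the forebrain factors Six3 and Gsx2, the heart factor Nkx2-5 and the kidney factor Pax2. A further 28 had counts that were too low to be tested, and 56 were tested. Of the 28, Vax2, an eye patterning gene named after its values were seen, stood out with 434 counts (5.03 CPM) in WT 32 and 0 in the other 5 libraries; the remaining 27 had group means of at most 0.341 CPM, the level of Pax1 in DKO.

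Compared per kilobase of exon, which allows levels to be set between genes, Meox1 was the highest member in WT, at 30.2 ± 6.26 CPM per kb (SD, n = 3). Its WT libraries did not overlap those of Nkx1-1 (21.1 ± 2.65). Nkx1-1, Isl2 (19.2 ± 4.21), Prrx2 (17.9 ± 7.94) and Emx2 (16.4 ± 2.03) overlapped in turn. Below Emx2 came Irx4 (11.1 ± 4.43) and Cux1 (5.14 ± 0.855), each apart from the member above it. In DKO, Prrx2 was at 54.9 ± 29.8 CPM per kb. Its DKO libraries did not overlap those of the next member, Emx2 (11.2 ± 1.51), and Emx2, Irx4 (11.0 ± 6.94), Irx3 (7.44 ± 2.07) and Meox1 (7.42 ± 3.15) overlapped in turn. Among the 101 members, Nkx1-1 went from place 3 in WT to place 57 in DKO, Isl2 from 4 to 16 and Meox1 from 1 to 6, while Pax8 went from 28 to 14.

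**Figure D1:**
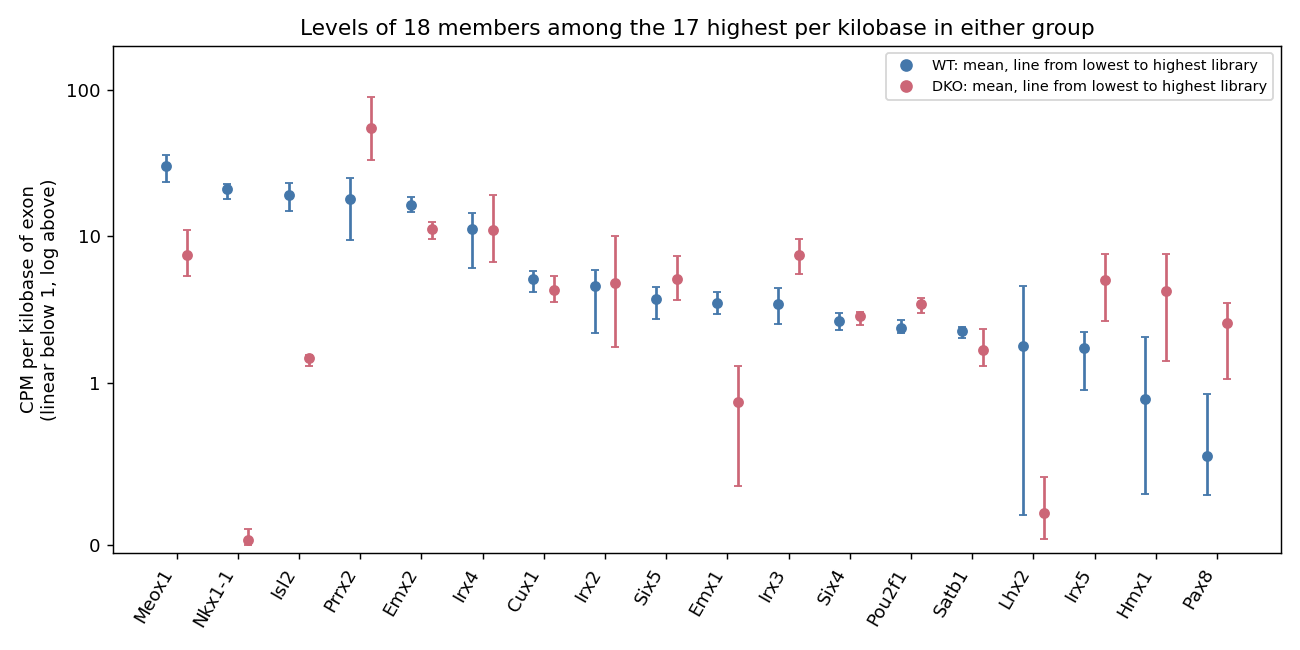
Mean level per kilobase of exon (CPM per kb, axis linear below 1 and log above) of 18 members that are among the 17 highest in either group, with a point for the mean of WT or DKO and a line from the lowest to the highest of its 3 libraries. Meox1 leads in WT at 30.2 CPM per kb, and Prrx2 reaches 54.9 in DKO.

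Against WT, 4 members rose and 7 fell in DKO, together 11 of the 56 tested (19.6%). Over all 19126 tested genes, edgeR called 4.51% in either direction, 1.7% as higher and 2.81% as lower. Of the 56 log2 fold changes (DKO minus WT), 28 were above 0 and 28 below, with a median of -0.00 against 0.03 over all tested genes. The libraries of the groups did not overlap for 23 members (41.1%), 14 higher and 9 lower in DKO, against 21.9% of all tested genes. Of the 11 calls, 4 were kept without each single library, all lower in DKO and among them Nkx1-1, Isl2 and Meox1, and the other 7 calls were each lost without at least 1 library. These 4 were also the only member calls with no filter on low counts and with edgeR's default legacy=TRUE, while DESeq2 called 20 members, all 11 included. Besides the 11, DESeq2 called Lhx8, Lhx1, Prrx2, Cux2, Pou2f1, Hmx1, Irx3 and Irx5 as higher and Emx2 as lower. With a filter at a mean of 1 CPM in either group, edgeR called 12 members, which were 9 of the 11 with Cux2, Irx3 and Alx1.

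**Figure D2:**
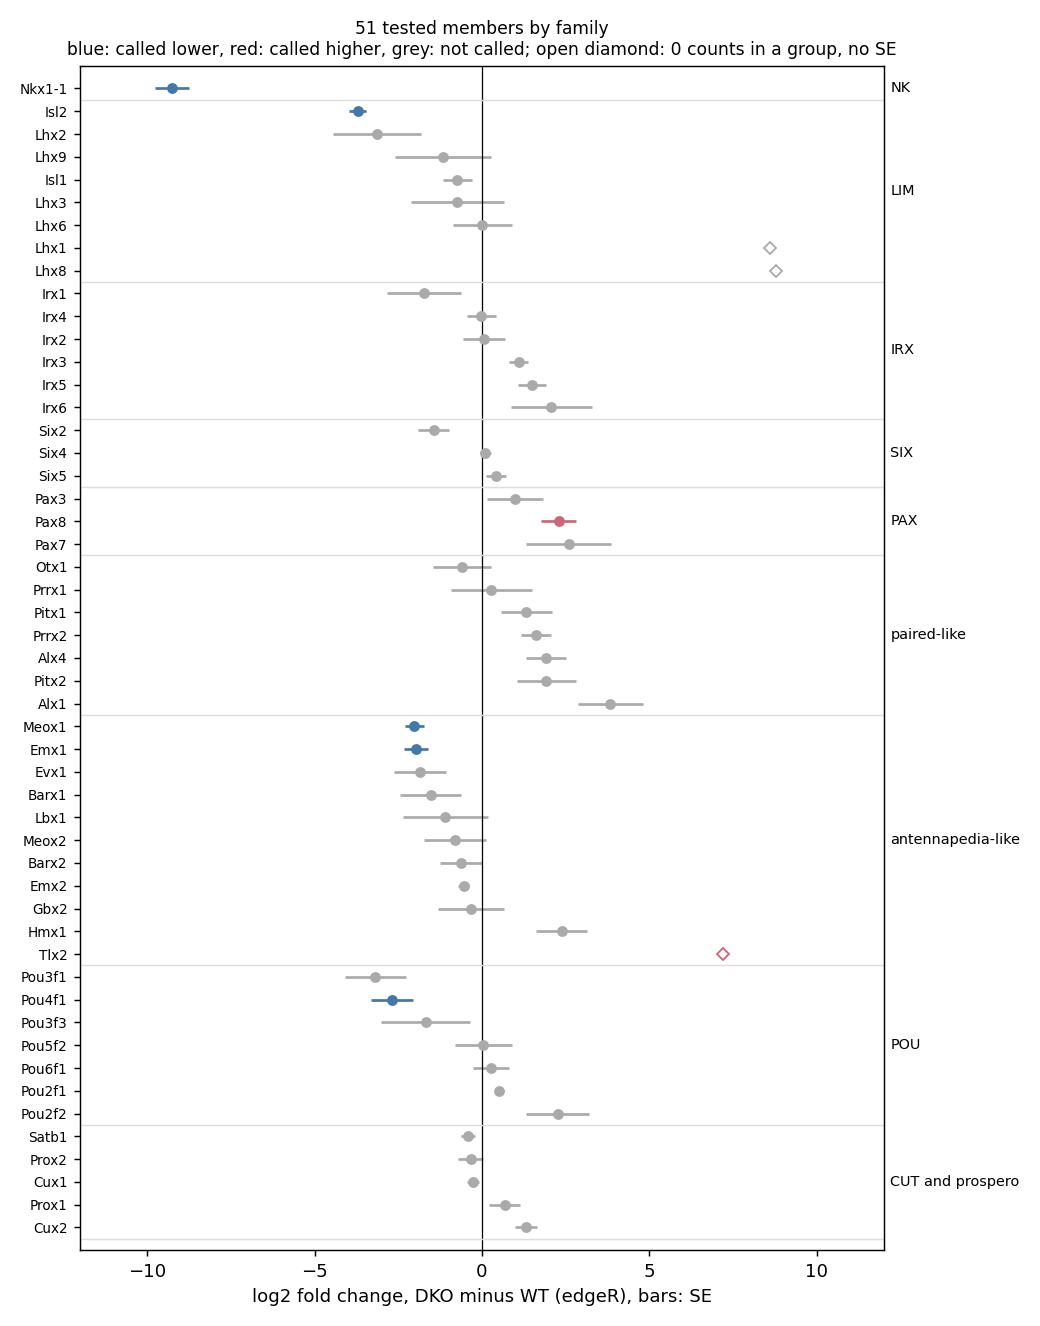
Log2 fold change (DKO minus WT) with its standard error for 51 tested members, grouped by family, in blue where called lower, red where called higher and grey where not called. Open diamonds have a group at 0 counts and no error bar. Nkx1-1 lies lowest among the plotted members at -9.25, and Isl2 at -3.71.

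Promoter sequence is given for 4 of the 11 called members, because the targeted factors Sp8 and Sp6 belong to the family that binds GC boxes. Each line gives the 250 bases before the start site in RefSeq's GRCm38.p6 annotation, 5′ to 3′ on the strand of the gene, with a GC box (GGGCGG, or CCGCCC on the other strand) in capitals. The Isl2 start lies inside the gene's annotated span, whose first exon begins upstream.
Nkx1-1, chr5:33434091-33434340, minus strand: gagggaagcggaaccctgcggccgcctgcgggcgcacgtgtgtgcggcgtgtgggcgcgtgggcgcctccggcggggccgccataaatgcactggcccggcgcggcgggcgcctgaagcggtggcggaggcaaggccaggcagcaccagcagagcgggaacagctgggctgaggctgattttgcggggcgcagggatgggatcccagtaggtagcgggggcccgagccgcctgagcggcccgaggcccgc
Isl2, chr9:55540899-55541148, plus strand: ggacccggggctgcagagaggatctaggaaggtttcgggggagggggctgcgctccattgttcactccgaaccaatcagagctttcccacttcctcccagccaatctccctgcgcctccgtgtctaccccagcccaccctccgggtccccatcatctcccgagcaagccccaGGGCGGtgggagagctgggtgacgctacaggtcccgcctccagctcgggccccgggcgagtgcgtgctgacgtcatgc
Pou4f1, chr14:104468000-104468249, minus strand: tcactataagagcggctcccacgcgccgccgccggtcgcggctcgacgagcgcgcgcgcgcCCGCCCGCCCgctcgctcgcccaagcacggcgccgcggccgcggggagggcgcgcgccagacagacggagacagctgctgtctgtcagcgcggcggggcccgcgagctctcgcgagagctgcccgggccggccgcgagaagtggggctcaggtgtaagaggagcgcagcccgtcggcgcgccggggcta
Pax8, chr2:24475600-24475849, minus strand: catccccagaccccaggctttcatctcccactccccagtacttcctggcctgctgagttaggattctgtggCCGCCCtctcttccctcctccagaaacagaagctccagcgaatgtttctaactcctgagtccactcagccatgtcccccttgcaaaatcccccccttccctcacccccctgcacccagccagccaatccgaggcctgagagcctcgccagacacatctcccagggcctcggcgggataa
No GC box was found before the Nkx1-1 start, 1 was found before those of Isl2 and Pax8, and 2 overlapping ones before that of Pou4f1. In windows of 300 bases (250 before to 50 after a start), 4 of the 5 called members with a window, 1 window each and Emx1 included, held a GC box. So did 26 of the 46 windows (56.5%) of 32 tested members that were not called. The 250 bases before the Emx1 start all lay within annotated exon, so its boxes there are in transcribed sequence. The same held for some members not called, such as Emx2, Gbx2, Irx3 and Prrx2. The share was 35.7% over all 32851 promoter windows and 60.4% over the 15314 windows of tested genes. G and C made up 70.9% of the bases in the called windows and 61.2% in those of tested members not called. They made up 60.4% over the windows of tested genes and 53.8% over all windows. The part of base content in the motif shares was not tested. The CACCC box GGGGTGG was in none of the 5 windows, in 17 of the 46, and in 18.6% of the windows of tested genes. Both motifs were searched on both strands, and a match is a description of letters only.

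Nkx1-1, an NK-family relative of the fly gene slouch (ENSMUSG00000029112.5, GRCm38 chromosome 5, 33430734 to 33433976, minus strand), fell from a clear level to almost 0. It was at 21.8, 26.9 and 27.7 CPM in WT 32, WT 53 and WT 56 and at 0.120 CPM (10 counts), 0 and 0 in DKO 17, DKO 40 and DKO 41. Every WT library was far above every DKO library, and DKO 17 was the only DKO library with a count. The group means differed 636-fold, with a log2 fold change of -9.25 (SE 0.51; edgeR adjusted p = 1.71e-05), and without DKO 17 the level was at least 1407-fold lower, and without DKO 41 it was 424-fold lower. With 12 of the 14 NK members undetected or too low to test, Nkx1-1 made up most of the family's summed level of 26.1 to 32.2 CPM in WT, against 1.83 to 4.64 CPM in DKO.

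Isl2, a LIM factor best known from motor neurons and retinal ganglion cells (ENSMUSG00000032318.12, chromosome 9, 55538672 to 55546180, plus strand), was the only called LIM member. It was at 32.4, 42.9 and 50.8 CPM in WT 32, WT 53 and WT 56, and at 2.85, 3.39 and 3.37 CPM in DKO 17, DKO 40 and DKO 41. The DKO libraries lay close together and all below WT, a 13.1-fold decrease (log2 fold change -3.71, SE 0.247; edgeR adjusted p = 0.000182). The summed level of the 10 LIM members was 50.6 to 70.1 CPM in WT and 7.59 to 14.0 CPM in DKO, with Isl2 the main part of it in WT 53 and WT 56. Its paralogue Isl1, also a motor neuron factor, stood at 2.26, 2.34 and 1.82 CPM in WT and 1.31, 1.99 and 0.605 CPM in DKO and was not called (edgeR adjusted p = 0.421).

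The remaining LIM members were low or uneven between libraries. Lhx2, which is expressed in distal limb mesenchyme and in hair follicle stem cells, was at 20.0, 2.42 and 0.824 CPM in WT 32, WT 53 and WT 56 and at 0.636, 0.157 and 1.83 CPM in DKO 17, DKO 40 and DKO 41. Its relative Lhx9, also a limb mesenchyme gene, was at 15.2, 1.90 and 0.343 CPM in WT and at 0.204, 0 and 7.49 CPM in DKO. WT 32 was the highest library for both genes, the groups overlapped, and neither was called (edgeR adjusted p = 0.269 for Lhx2 and 0.752 for Lhx9). Without WT 32, the log2 fold change of Lhx2 went from -3.14 to -0.76. Lhx8, a forebrain and tooth factor, and Lhx1, a kidney and head organiser factor, had 0 counts in WT and were detected in each DKO library, at 0.213 to 1.49 CPM and 0.123 to 1.53 CPM, but were not called (edgeR adjusted p = 0.117 and 0.217). Both were called by edgeR when DKO 41 was left out, and by DESeq2 with all 6 libraries.

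Meox1, a somite factor (ENSMUSG00000001493.9, chromosome 11, 101877510 to 101894374, minus strand) and the member with the highest WT level per kilobase, fell in DKO. Its values were 52.5, 80.2 and 69.4 CPM in WT 32, WT 53 and WT 56 and 24.6, 13.0 and 12.0 CPM in DKO 17, DKO 40 and DKO 41. All DKO libraries were below all WT libraries, with DKO 17 the highest of the 3, and the means of 67.4 ± 13.9 and 16.5 ± 7.02 CPM differed 4.08-fold (log2 fold change -2.02, SE 0.28; edgeR adjusted p = 0.00579). The 6 listed somite and muscle precursor markers summed to 164 to 175 CPM in WT and 226 to 293 CPM in DKO, most of it Meis1, which was called as higher (1.55-fold; edgeR adjusted p = 0.0286) and is not restricted to somites. Of the other 5, Tbx6 went from 3.05 ± 1.67 to 0.534 ± 0.334 CPM (SD, n = 3) and Met from 23.7 ± 3.88 to 37.9 ± 3.20 CPM, neither called, Tcf15 overlapped between the groups and reached at most 2.32 CPM, and Myf5 and Myod1 were at most 0.240 CPM. The part of somite cells in the level of Meox1 was not tested. Its paralogue Meox2, known from limb muscle and mesenchyme, was at 8.04, 0.647 and 0.343 CPM in WT and at 2.15, 2.08 and 1.28 CPM in DKO, so the groups overlapped and WT 32 stood above the rest.

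Emx1, best known from the cerebral cortex (ENSMUSG00000033726.8, chromosome 6, 85187438 to 85204462, plus strand), was the other antennapedia-like member that fell. It was at 6.46, 7.20 and 9.10 CPM in WT 32, WT 53 and WT 56 and at 2.82, 0.797 and 2.13 CPM in DKO 17, DKO 40 and DKO 41. The groups did not overlap, with a 3.96-fold decrease (log2 fold change -1.97, SE 0.37; edgeR adjusted p = 0.0208). That call was lost without DKO 40 or any 1 WT library, with adjusted p up to 0.108. Its paralogue Emx2, a factor of the cortex, the urogenital system and the scapula, had the higher level per kilobase in WT (16.4 against 3.47 CPM per kb). Emx2 was at 47.3, 44.3 and 56.0 CPM in WT and 37.3, 28.6 and 35.2 CPM in DKO, lower in each DKO library, and was not called (log2 fold change -0.55; edgeR adjusted p = 0.096). Exons of Emx2 share 264 bases with its antisense gene Emx2os, and these unstranded libraries cannot separate their reads.

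Tlx2, known from enteric neurons (ENSMUSG00000068327.5, chromosome 6, 83068324 to 83070293, minus strand), was the only antennapedia-like member that rose, at a very low level. It had 0 counts in the WT libraries and 19, 15 and 22 counts in DKO 17, DKO 40 and DKO 41 (0.228, 0.196 and 0.247 CPM). The DKO libraries were close to each other and all above 0, at least 17.7-fold higher than the WT floor (edgeR adjusted p = 0.0439). The call was lost without any 1 library, with adjusted p between 0.113 and 0.21, and the bound was 11.2-fold without WT 32 or WT 56. Of the other antennapedia-like members, Hmx1, an ear and eye factor, was at 0.533, 3.24 and 0.504 CPM in WT and 2.23, 12.0 and 5.76 CPM in DKO, with WT 53 inside the DKO range, and was not called (edgeR adjusted p = 0.134). Of the 25 antennapedia-like members, 11 were tested, and the family's summed level was 128.9 to 140.4 CPM in WT and 58.8 to 73.2 CPM in DKO.

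Pou4f1, a POU factor of sensory neurons (ENSMUSG00000048349.9, chromosome 14, 104461676 to 104467999, minus strand), fell from 1.23, 0.537 and 1.40 CPM in WT to 0.228, 0.248 and 0.045 CPM in DKO. WT 53 was the lowest WT library and still above each DKO library, a 6.06-fold decrease (log2 fold change -2.69, SE 0.631; edgeR adjusted p = 0.0386), which was lost without any 1 library other than WT 53 (adjusted p up to 0.172). The neural markers summed to 115 to 165 CPM in WT and 47.2 to 56.0 CPM in DKO, in WT mostly Tubb3 and Nes, while Neurog1 was at 0 in all libraries, and the part of such cells in the values of Pou4f1 and Isl2 was not tested.

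Pou2f1, a broadly expressed octamer-binding factor, was at 44.2, 36.2 and 37.9 CPM in WT and 58.1, 49.5 and 62.5 CPM in DKO. Each DKO library was above each WT library, but the change was not called (log2 fold change 0.52; edgeR adjusted p = 0.0867), and its exons share 3007 bases with Cd247. Pou3f1, an epidermal and Schwann cell factor, was at 1.78, 0.047 and 1.74 CPM in WT and 0.036, 0.144 and 0.235 CPM in DKO. WT 53 lay among the DKO libraries, and Pou3f1 passed the threshold only when WT 53 was left out (edgeR adjusted p = 0.0789 with it and 0.0141 without). Of the other tested POU members, Pou2f2, Pou3f3, Pou5f2 and Pou6f1 were at most 3.70 CPM in any library and were not called.

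Of the CUT and prospero families, Cux1, Cux2, Satb1, Prox1 and Prox2 were not called. Cux1, a CUT repressor with a broad range, was at 115.9, 83.5 and 109.2 CPM in WT and 71.4, 79.6 and 106.3 CPM in DKO, with overlap (edgeR adjusted p = 0.51). Its paralogue Cux2 was at 3.86, 2.24 and 3.67 CPM in WT and at 6.29, 7.49 and 11.1 CPM in DKO, above WT in each DKO library, and missed the threshold (log2 fold change 1.32; edgeR adjusted p = 0.055, and 0.0464 without DKO 17). Satb1, a chromatin organiser of epidermis and thymus, was at 43.6, 38.5 and 45.5 CPM in WT and 27.0, 24.5 and 44.1 CPM in DKO, where DKO 41 lay in the WT range. Without DKO 41, Satb1 was called as lower (log2 fold change -0.74; edgeR adjusted p = 0.0442, against 0.377 with it). Prox1 and Prox2 stayed at 2.20 CPM or less in every library.

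The paired-like genes as a group had a summed level of 60.2 to 125.9 CPM in WT and 145 to 364 CPM in DKO, and a median log2 fold change of 1.50 over 8 tested members. Prrx2, a mesenchymal factor of limb and face, was at 49.4, 37.3 and 18.5 CPM in WT 32, WT 53 and WT 56 and at 83.0, 174 and 65.4 CPM in DKO 17, DKO 40 and DKO 41. All DKO libraries of Prrx2 were above all WT libraries, but the change was not called (log2 fold change 1.62; edgeR adjusted p = 0.0906). It was called without DKO 41 (edgeR adjusted p = 0.0486). Alx1, needed in frontonasal mesenchyme, was at 0.475, 0 and 0 CPM in WT and 0.888, 4.35 and 2.35 CPM in DKO (edgeR adjusted p = 0.0518, and 0.0239 without DKO 17). Alx4, an anterior limb mesenchyme factor, was at 1.82, 1.31 and 0.240 CPM in WT and 2.03, 4.16 and 6.21 CPM in DKO and was not called (edgeR adjusted p = 0.12).

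Prrx1, the paralogue of Prrx2 and a standard marker of limb mesenchyme, did not separate the groups. It was at 29.0, 1.61 and 0.412 CPM in WT 32, WT 53 and WT 56 and at 3.51, 23.3 and 12.8 CPM in DKO 17, DKO 40 and DKO 41. WT 32 was the highest of all 6 libraries and the other WT libraries the lowest, so the log2 fold change was 0.28 with all libraries and 3.79 without WT 32 (edgeR adjusted p = 0.935 and 0.139). All 11 genes listed as mesenchymal markers were detected, with a summed level that did not follow Prrx1. The sum was 523 to 527 CPM in WT and 285 to 465 CPM in DKO, most of it Col1a2, Tcf4 and Pdgfra. Tcf4 varied little between libraries (163 ± 9.04 CPM in WT and 142 ± 2.09 CPM in DKO). Whether Tcf4 marks mesenchyme in these samples was not tested, so the sum need not track mesenchymal cells. Pdgfra was the only marker called, 8.69-fold lower in DKO (66.6 ± 28.6 CPM in WT and 7.66 ± 4.41 CPM in DKO; edgeR adjusted p = 0.00696), and each DKO library of Col1a2 and Tcf4 was below each WT library. The other 8 markers, a sub-list taken after the values were seen, summed to 78.5, 13.8 and 5.29 CPM in WT 32, WT 53 and WT 56 and to 41.9, 153 and 79.1 CPM in DKO 17, DKO 40 and DKO 41. None of the 8 was called, and their median log2 fold change was 0.51. Twist1 and Twist2 were higher in each DKO library than in any WT library, while Postn and Tbx5 had lower means in DKO and overlapped. The part of mesenchymal cells in the levels of Prrx1, Prrx2, Alx1, Alx4, Lhx2, Lhx9 and Meox2 was not tested.

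**Figure D3:**
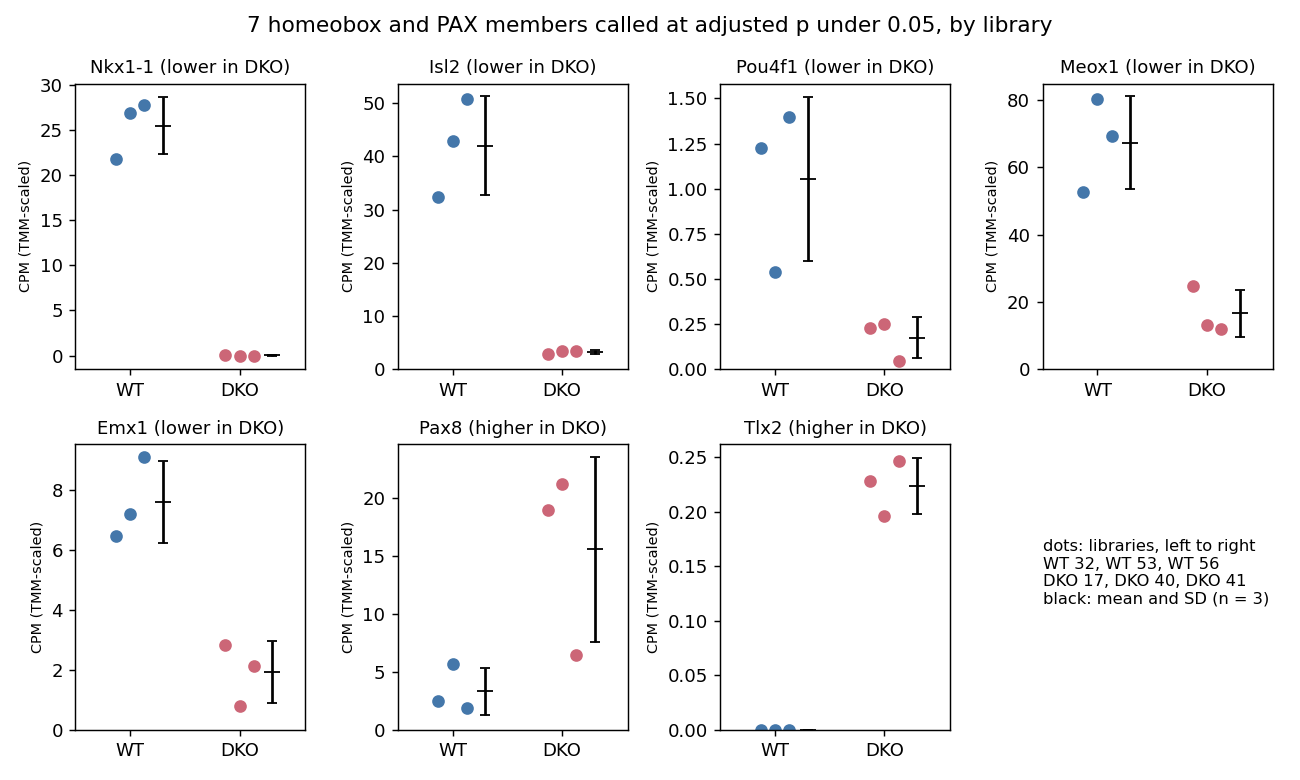
Level (CPM) in each of the 6 libraries for 7 called members, with a coloured dot for each library and a black mark for the group mean with its SD (n = 3). Nkx1-1 falls from 21.8 to 27.7 CPM in WT to at most 0.120 CPM in DKO, while the Pax8 libraries lie at 1.85 to 5.64 CPM in WT and 6.46 to 21.2 CPM in DKO.

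Of the SIX-family genes, Six4, a factor of muscle and kidney precursors, was at 28.1, 24.9 and 32.4 CPM in WT and 27.0, 32.1 and 33.1 CPM in DKO, with overlap and a log2 fold change of 0.10. Six5, a broadly expressed relative, was at 13.4, 8.20 and 12.2 CPM in WT and 11.0, 12.7 and 22.0 CPM in DKO (edgeR adjusted p = 0.527). Six2, a kidney progenitor factor, was at 2.30, 1.59 and 1.65 CPM in WT and 1.08, 0.706 and 0.303 CPM in DKO, lower in each DKO library, and was not called (edgeR adjusted p = 0.132).

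Pax8, a thyroid and kidney factor (ENSMUSG00000026976.15, chromosome 2, 24420560 to 24475599, minus strand), was the only called PAX member and rose in DKO. It was at 2.49, 5.64 and 1.85 CPM in WT 32, WT 53 and WT 56 and at 19.0, 21.2 and 6.46 CPM in DKO 17, DKO 40 and DKO 41. DKO 41 lay just above WT 53 and far below the other DKO libraries, and the increase was 4.67-fold (log2 fold change 2.29, SE 0.528; edgeR adjusted p = 0.0447). The call was lost without any 1 library other than DKO 41 (adjusted p up to 0.209), and its exons share 367 bases with Gm13415 on the opposite strand. Of the 5 listed endoderm markers, which summed to 0.300 to 0.515 CPM in WT and 1.83 to 7.96 CPM in DKO, Sox17 made up nearly all of the DKO sum and was called as higher (edgeR adjusted p = 0.0123). Foxa2 was at 0 in all libraries, and Foxa1, Foxa3 and Shh were at most 0.286 CPM in any library. Sox17 also marks endothelium. The 5 listed endothelium markers summed to 0.284 to 0.475 CPM in WT and 0.562 to 1.36 CPM in DKO. Cdh5 was at 0 in all libraries, and neither of the 2 tested markers was called. The part of endoderm or endothelium in the level of Pax8 was not tested. Pax3, a neural crest and muscle precursor factor, was at 0.498, 0.537 and 0.572 CPM in WT and at 2.49, 0.457 and 0.247 CPM in DKO, so that only DKO 17 stood apart. Pax7, its paralogue, was at most 0.601 CPM in any library, and the 6 other PAX members were undetected or too low to test.

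The 6 IRX genes, which pattern many tissues and lie in 2 clusters of 3 genes, were all tested and none was called. DESeq2, however, called Irx3 and Irx5, and edgeR called Irx3 with the filter at a mean of 1 CPM. In the cluster on chromosome 8, Irx3, a limb and heart factor, was at 9.37, 6.93 and 12.2 CPM in WT 32, WT 53 and WT 56 and at 15.2, 19.8 and 26.6 CPM in DKO 17, DKO 40 and DKO 41. Irx5, which acts with Irx3 in the early limb bud, was at 6.25, 2.98 and 6.94 CPM in WT and 8.17, 15.1 and 23.8 CPM in DKO. For both genes each DKO library was above each WT library, DKO 17 was the lowest and DKO 41 the highest, and the threshold was missed (log2 fold changes 1.10 and 1.50; edgeR adjusted p = 0.0604 and 0.0874). Without DKO 17 both were called, at edgeR adjusted p = 0.0409 for Irx3 and 0.0297 for Irx5. Irx6, the third gene of that cluster, was at most 0.829 CPM, with a log2 fold change of 2.08.

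In the cluster on chromosome 13, the libraries of the groups overlapped for each gene. Irx4, a heart ventricle factor, was at 33.8, 15.9 and 37.5 CPM in WT 32, WT 53 and WT 56 and at 19.4, 17.3 and 49.7 CPM in DKO 17, DKO 40 and DKO 41. Irx2 was at 19.3, 7.15 and 18.5 CPM in WT and 8.86, 5.70 and 32.8 CPM in DKO. For both genes DKO 41 was the highest library and WT 53, DKO 17 and DKO 40 the low ones, with log2 fold changes of -0.02 for Irx4 and 0.07 for Irx2 (edgeR adjusted p = 0.987 and 0.972). Irx1, the third gene there, was at most 0.301 CPM in any library. The same 3 low libraries were the 3 highest on the second principal component of all genes, which held 25.7% of the variance (WT 53 at 86.3, DKO 17 at 56.3 and DKO 40 at 16.1), and the part of what that component reflects was not tested.

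Library by library, 52 to 68 of the 101 members had a count, the fewest in WT 53 and the most in WT 32. Over all genes the same 2 libraries had the fewest and the most with a count (21716 in WT 53 and 24651 in WT 32). WT 53 also had the lowest total, at 64432348 counts against 86737555 in WT 32. Of the 12 members counted in a single library, 8 were counted in WT 32, among them Vax2, Pax9, Nkx2-4 and Pou4f3. WT 32 held the highest value of 14 of the 56 tested members and was the sole lowest library for 0 of them. DKO 41 also held the highest value of 14, and was the sole lowest library for 7. The summed member level was 693, 543 and 629 CPM in WT 32, WT 53 and WT 56 and 570, 731 and 659 CPM in DKO 17, DKO 40 and DKO 41, so the sums of the groups overlapped. The mesothelium markers were also highest in WT 32, with a summed 8.40 CPM against 4.39 to 7.84 CPM in the other libraries, and Tbx18 alone gave 4.33 CPM of it, against at most 0.213 CPM elsewhere. Wt1, the only called marker of that list, was higher in DKO (0.242 ± 0.111 CPM in WT and 2.12 ± 0.696 CPM in DKO; edgeR adjusted p = 0.0106). Red blood cell markers ranged from 0 to 256 CPM in WT and 21.1 to 732 CPM in DKO, highest in DKO 41, and macrophage markers were at most 0.717 CPM.

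**Figure D4:**
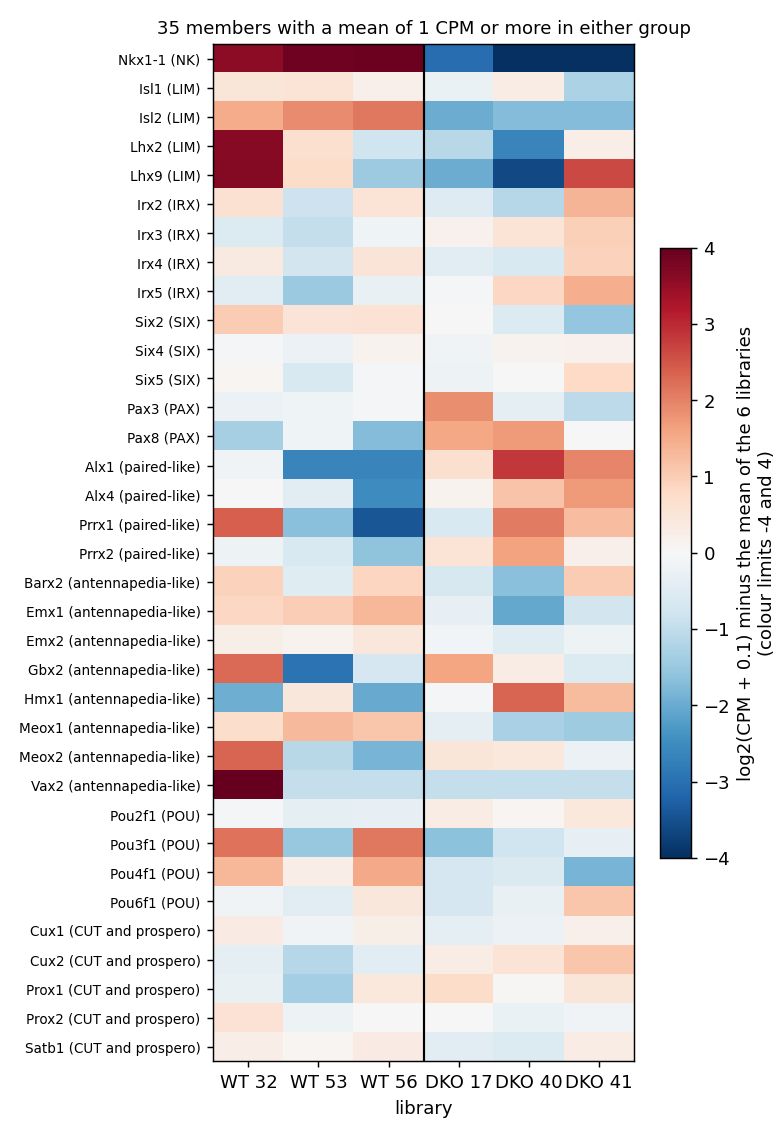
Levels of 35 members whose mean reached 1 CPM in either group, as log2(CPM + 0.1) minus the mean of the 6 libraries for each gene, with the colour scale ending at -4 and 4. Nkx1-1 and Isl2 separate the groups, while Prrx1, Lhx2, Lhx9 and Vax2 are highest in WT 32.

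The homeobox genes outside the chosen families are the other readout of the same class. Of 70 such genes, 50 were tested, and 6 rose and 4 fell (20%, against 4.51% of all genes), with a median log2 fold change of 0.31. Dlx1 and Dlx2, limb ectoderm and forebrain factors, were 4.90-fold and 3.35-fold lower in DKO (edgeR adjusted p = 0.000757 and 0.00425), with 335 bases of Dlx1 shared with Dlx1as on the opposite strand. En1, which marks the ventral limb ectoderm, was 3.20-fold lower (edgeR adjusted p = 0.0454), and that call was lost without any 1 library. Meis2, a TALE-class cofactor that also marks the proximal limb, was 2.06-fold higher (edgeR adjusted p = 0.00124). The calls of Dlx1, Dlx2 and Meis2 were kept without each single library.

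Of 22 partner genes of the members (EYA, DACH, LDB, LMO, SSBP, RLIM and TLE), 21 were tested, and 3 rose and 4 fell (33.3%, against 4.51% of all genes), with a median log2 fold change of 0.11. The SIX-family cofactors moved in opposite directions: Eya1 was 2.83-fold higher in DKO, with 17.6 to 25.4 CPM against 4.45 to 9.19 CPM in WT (edgeR adjusted p = 0.0201). Eya2 was 2.82-fold lower, with 26.0 to 34.4 CPM against 65.2 to 94.4 CPM in WT (edgeR adjusted p = 0.0032). Dach1 and Dach2, which act with EYA proteins, were 3.93-fold and 2.45-fold higher (edgeR adjusted p = 0.0141 and 0.0408). Lmo2, a LIM-only protein that binds LDB adaptors, was lower (log2 fold change -3.41; edgeR adjusted p = 0.00947), and its DKO level was highest in DKO 17 (2.02 CPM, against 0.288 in DKO 40 and 0.146 in DKO 41). The corepressor Tle4 was 2.00-fold lower (edgeR adjusted p = 0.00374). The calls of Eya2 and Tle4 were kept without each single library, while those of Dach1 and Lmo2 were each lost without 2 libraries (WT 32 or WT 56 for Dach1, DKO 40 or WT 56 for Lmo2). The Eya1 call was lost without DKO 40, WT 32 or WT 56, and the Dach2 call without any 1 library other than DKO 17.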

How the data were processed

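The authors deposited a table of raw counts, whole numbers for 55401 genes, with no normalization. Values of 1 were 2.03 to 2.41 times as many as values of 2 in each library, and whether low counts are rounded estimates was not given in the sources used here, so floors and values of few counts may not be whole reads. The submitters' processing notes name HISAT2, StringTie, Cufflinks, fastp, FastQC and DESeq2, with the builds GRCm38 and mm10. Which of these wrote the counts, and the versions, were not given in the sources used here. Per the labels' protocols, libraries were made with SMART-Seq v4 and Nextera XT, which mark no strand and carry no molecular identifiers, so reads from overlapping genes cannot be assigned by strand, and floors cover counting error only. The 6 columns were placed by group name, with no replicate number. Each pair of libraries differed by more than sampling noise.

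Genes were tested with edgeR 4.0.16 in R 4.3.3 (filterByExpr, TMM, robust glmQLFit with legacy=FALSE, quasi-likelihood F test), Benjamini-Hochberg adjusted over 19126 genes. Log2 fold changes are DKO minus WT, and the standard error (SE) is their size divided by the square root of F, left out where a group is at 0. A fold against 0 uses a floor of 3 counts over the group. Exon lengths, positions and overlaps are from GENCODE M21 on GRCm38 (99.5% of identifiers matched), and promoter windows from RefSeq GRCm38.p6 for 73 of 101 members. Alternatives were DESeq2 1.42.0, its size factors, other filters, legacy=TRUE, library sizes without haemoglobin genes, and libraries left out. The members, lists and tests were chosen with earlier results of these data known, and legacy=FALSE was chosen after a first look at them. Named members are those called, those whose mean reached 10 CPM in either group, and those with p under 0.01; others were given beside a paralogue or for 1 outlying library after their values were seen. From the other homeobox genes and the partners, the 6 called genes with the largest changes in each were named. Some members and list genes are counted but not reported here by name or plotted. The scripts were tested on simulated data.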

Additional observations from a re-analysis of the deposited data

How the results depend on the processing

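No paired analysis was possible because the column numbers correspond to none of the labels' replicate numbers. Of the 11 member calls, all 11 were also made with DESeq2's size factors and by DESeq2's own test, and 4 (among them Nkx1-1, Isl2 and Meox1) without each single library. The members called higher numbered 4 as reported, 12 by DESeq2, and 5 with the filter at a mean of 1 CPM. They numbered 0 with no filter on low counts, 0 with legacy=TRUE, 2 without both WT 32 and DKO 41, and 0 to 5 with 1 library left out. The members called lower numbered 7 as reported, 8 by DESeq2, and 7 with the filter at a mean of 1 CPM. They numbered 4 with no filter, 4 with legacy=TRUE, 3 without both libraries, and 4 to 7 with 1 left out. Of the other homeobox genes, 6 were higher as reported, against 4 with legacy=TRUE, 3 with no filter, 2 without both libraries and 1 to 6 with 1 left out, and 4 were lower, against 7 by DESeq2, 2 with no filter, 2 without both and 2 to 3 with 1 left out. Of the partners, 3 were higher, against 1 with no filter, 0 without both and 0 to 3 with 1 left out, and 4 were lower, against 6 by DESeq2 and 2 to 4 with 1 left out. All genes called numbered 863, against 1738 by DESeq2, 546 with legacy=TRUE and 412 with no filter. Sp6 had log2 fold changes of -2.64 to -1.45 with 1 library left out. With libraries left out, 14 of the 56 tested members changed sign in at least 1 such fit, none of them a called member, among them Lhx9 (-1.16 to 1.39 without WT 32), Meox2 (-0.81 to 1.92 without WT 32), Pax3 (0.98 to -0.64 without DKO 17), Gbx2, Otx1, Lhx6, Pou6f1, Prrx1 (-0.38, -0.17 and -0.31 without DKO 40, WT 53 and WT 56, against up to 3.79 without WT 32), Irx2 (-1.08 without DKO 41, -0.24 without WT 53, -0.89 without both WT 32 and DKO 41, against up to 0.45 without DKO 40) and Irx4 (0.20, 0.24, 0.07 and 0.19 without DKO 17, DKO 40, WT 32 and WT 56, against -0.69 without DKO 41). With the longer GC box GGGGCGG, promoter windows holding it made up 20% of called members, 37.0% of tested members not called and 23.2% of all promoters, against 40.8% of the promoters of all tested genes. The cause of these differences was not tested. With 3 libraries a group, changes of low members such as Tlx2 rest on few counts, which may be rounded estimates.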
